A study of Homo sapiens with 18 samples.

Results

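The stable hnRNPM knockdown (KD) and the stable MagoHB KD of A549, an established human lung adenocarcinoma line, were compared directly by poly(A) mRNA sequencing. The comparison holds the 3 untreated hnRNPM KD libraries and the 3 untreated MagoHB KD libraries, which are 6 of the 18 libraries of the series, and the libraries were assigned to their groups by these labels. The other 12 libraries are wild-type cells and an S100A16 KD, each without and with hydrogen peroxide. No wild-type library entered this comparison, so each difference is the hnRNPM KD relative to the MagoHB KD, and which of the 2 lines moved away from unmodified A549 cannot be told apart here. Both groups share the A549 background, a stable KD and no treatment. The labels call the libraries biological replicates, while neither the KD method nor the clonality of each line is given in the labels, so p-values measure the spread between these libraries.

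hnRNPM is an RNA-binding protein of the heterogeneous nuclear ribonucleoprotein family that binds GU-rich stretches, mostly in introns, and alters which exons are kept in the mRNA. MagoHB is a core subunit of the exon junction complex, a group of proteins that the spliceosome leaves on mRNA upstream of exon junctions and that serves in mRNA export, translation and nonsense-mediated decay. It pairs with RBM8A (Y14) and has a near-identical copy, MAGOH, that can take its place.

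The coding sequences of both copies are shown because a read can match both only where they are identical. This bears on the check of the targeted gene, and whether reads were counted for the other copy was not tested. The sequences come from the GENCODE 29 transcripts on GRCh38. The coding part of MAGOH lies on the minus strand at chr1:53227045-53238448 and that of MAGOHB on the minus strand at chr12:10606275-10613532. Aligned from the stop codon without gaps, the 441 coding bases of MAGOH and the matching bases of MAGOHB were 86.4% identical and differed at 60 positions. The longest identical run was 38 bases, so any longer coding stretch differed between the copies. The last 240 coding bases follow, 5′ to 3′, with the 33 bases that differ in this stretch in capitals.
MAGOH: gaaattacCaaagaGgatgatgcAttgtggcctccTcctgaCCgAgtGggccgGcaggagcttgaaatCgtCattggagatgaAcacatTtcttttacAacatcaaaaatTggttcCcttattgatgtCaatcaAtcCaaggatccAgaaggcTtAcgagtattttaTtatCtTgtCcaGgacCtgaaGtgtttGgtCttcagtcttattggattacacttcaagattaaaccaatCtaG
MAGOHB: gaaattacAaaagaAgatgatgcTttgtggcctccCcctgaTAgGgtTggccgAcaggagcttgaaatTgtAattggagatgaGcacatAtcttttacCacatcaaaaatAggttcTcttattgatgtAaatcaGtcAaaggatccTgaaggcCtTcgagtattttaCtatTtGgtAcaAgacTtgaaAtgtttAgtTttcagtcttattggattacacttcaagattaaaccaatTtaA
Differing bases were spread along the stretch, and the identical run of 38 bases lay close to the stop codon.

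Library depth ran from 36612997 counts (hnRNPM KD 2) to 51406431 counts (MagoHB KD 2). Levels below are CPM, the counts scaled to a common library total and by TMM, unless a scale per exon length is named. hnRNPM KD 3 and MagoHB KD 2 stood apart from the other libraries of their groups. Within a group, the chi-square per degree of freedom between libraries was 30.5 to 67.1 for pairs with one of these 2 libraries and 5.45 to 5.61 for the other pairs. In a principal component analysis, the first component held 59.3% of the variance and separated the KDs, and the second held 19.1% and set these 2 libraries (-37.9 and -44.6) against the other 4 (12.8 to 32.8). Over 11475 genes of at least 5 CPM, their deviations from the group means had a Pearson correlation of 0.678, as a description across genes within these libraries. Relative to the other replicates of their groups, 40 genes were at least 2-fold higher in both, 1 was at least 2-fold lower in both and 0 went opposite ways. Median deviations were 0.79 and 1.01 (log2, hnRNPM KD 3 and MagoHB KD 2) for inflammatory cytokines and chemokines, 0.43 and 0.70 for interferon-stimulated genes, and -0.51 and -0.87 for mitosis genes. Counts for all genes and for each gene list are therefore given with all 6 libraries and with 4, that is, without both of these libraries. Mitochondrial transcripts took 9.6% to 10.6% of counts in the hnRNPM KD libraries and 7.26% to 7.51% in the MagoHB KD libraries, so the shares did not overlap. Summed A549 identity markers, such as keratins and aldo-keto reductases, were at 10383.9 to 11550.4 CPM in the 6 libraries. Summed endothelial markers were at 0.264 to 1.06 CPM, and fibroblast markers at 125 to 137 CPM in the hnRNPM KD and 109 to 113 CPM in the MagoHB KD.

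HNRNPM mRNA (chr19:8444767-8489114, plus strand, GRCh38) was at 406, 433 and 288 CPM in hnRNPM KD 1 to 3 and at 1638.8, 1178.9 and 1549.7 CPM in MagoHB KD 1 to 3. Every hnRNPM KD library lay below every MagoHB KD library, at 25.8% of the MagoHB KD mean. The log2 fold change, hnRNPM KD over MagoHB KD, was -1.95 (SE 0.18), with an adjusted p of 0.000159 in edgeR's quasi-likelihood test with Benjamini-Hochberg adjustment over all genes tested, and -1.93 without the 2 libraries that stood apart. Each adjusted p below comes from this test, with n = 3 libraries per group, unless its sentence names another fit.

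MAGOHB mRNA (chr12:10604190-10613623, minus strand) was at 78.5, 69.3 and 55.8 CPM in the hnRNPM KD and at 63.1, 38.8 and 58.3 CPM in the MagoHB KD. The groups overlapped, and the log2 fold change of 0.35 (SE 0.19) did not pass the test (adjusted p = 0.208). The targeted mRNA of the MagoHB KD was therefore not shown to be lower in that line than in the hnRNPM KD with all 6 libraries. Without the 2 libraries that stood apart it was 0.28 (adjusted p = 0.000459). No direction below rests on MAGOHB itself, and the MagoHB KD libraries are named by their labels throughout.

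MAGOH, the near-identical copy, was at 52.5, 51.6 and 41.7 CPM against 52.2, 42.7 and 50.8 CPM, with a log2 fold change of 0.00 (SE 0.12, adjusted p = 0.996). RBM8A, the partner of both, was at 241, 227 and 196 CPM against 237, 200 and 234 CPM, with a log2 fold change of -0.02 (SE 0.11, adjusted p = 0.925). Of its exon length, 26.9% overlaps GNRHR2. Neither differed beyond the spread between libraries. S100A16, the calcium-binding protein that a further line of the series targets, was at 112, 116 and 142 CPM in the hnRNPM KD and 53.3, 75.4 and 57.6 CPM in the MagoHB KD. Its groups did not overlap, and the log2 fold change was 0.99 (SE 0.15, adjusted p = 0.00151).

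**Figure D1:**
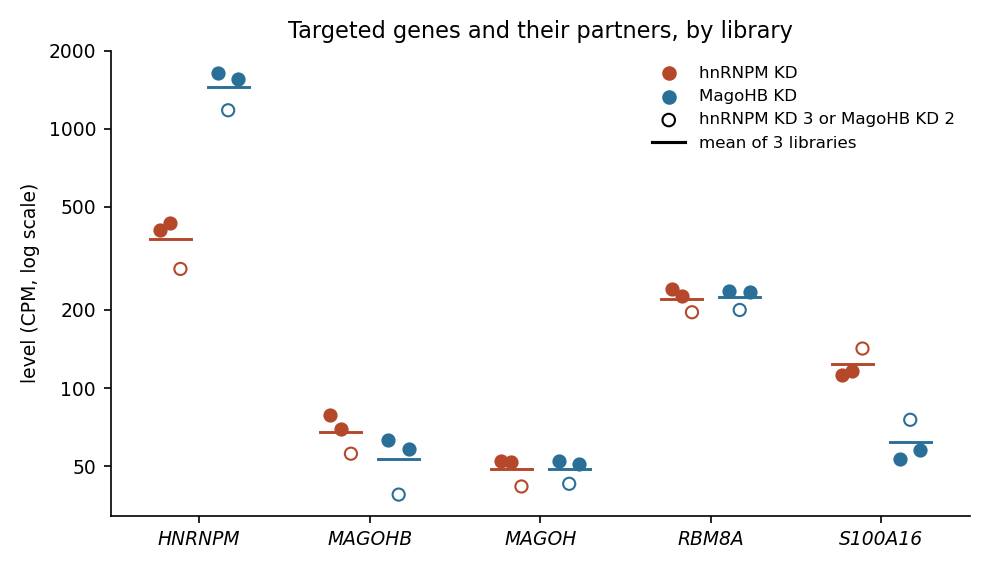
Levels of the targeted genes HNRNPM and MAGOHB, of MAGOH and RBM8A, and of S100A16 in CPM (log scale), with 1 point per library, open points for hnRNPM KD 3 and MagoHB KD 2, and a line at the mean of each group of 3. HNRNPM and S100A16 separate the groups, while MAGOHB, MAGOH and RBM8A overlap.

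The test covered 20890 genes and called 6893 (33%) at an adjusted p under 0.05, with 3583 (17.2%) higher and 3310 (15.8%) lower in the hnRNPM KD. At least 2-fold differences were called for 1079 genes (5.17%) higher and 1280 genes (6.13%) lower, and an unadjusted p under 0.05 was found for 9120 genes (43.7%). Without hnRNPM KD 3 and MagoHB KD 2, 10328 of 20663 genes (50%) were called, 5195 higher (25.1%) and 5133 lower (24.8%). Of these, 1293 (6.26% of the genes tested) were at least 2-fold higher and 1536 (7.43%) at least 2-fold lower, and 11354 genes (54.9%) had an unadjusted p under 0.05. Of 20454 genes tested in both fits, 6656 were called in both, 6656 of them in the same direction, which was 96.6% of the calls with 6 libraries and 64.4% of the calls with 4. The 4 libraries are part of the 6, so this agreement was largely set in advance and is no independent check. The 2 left out were picked for standing apart from their replicates, which lowers the spread within groups in the smaller fit. The share of calls that were higher was 52% under TMM and 40.3% when libraries were scaled by total counts alone, which moved log2 fold changes by a median of -0.09. Counts of calls were as low as 4595 without hnRNPM KD 2 and 4496 without MagoHB KD 3.

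**Figure D2:**
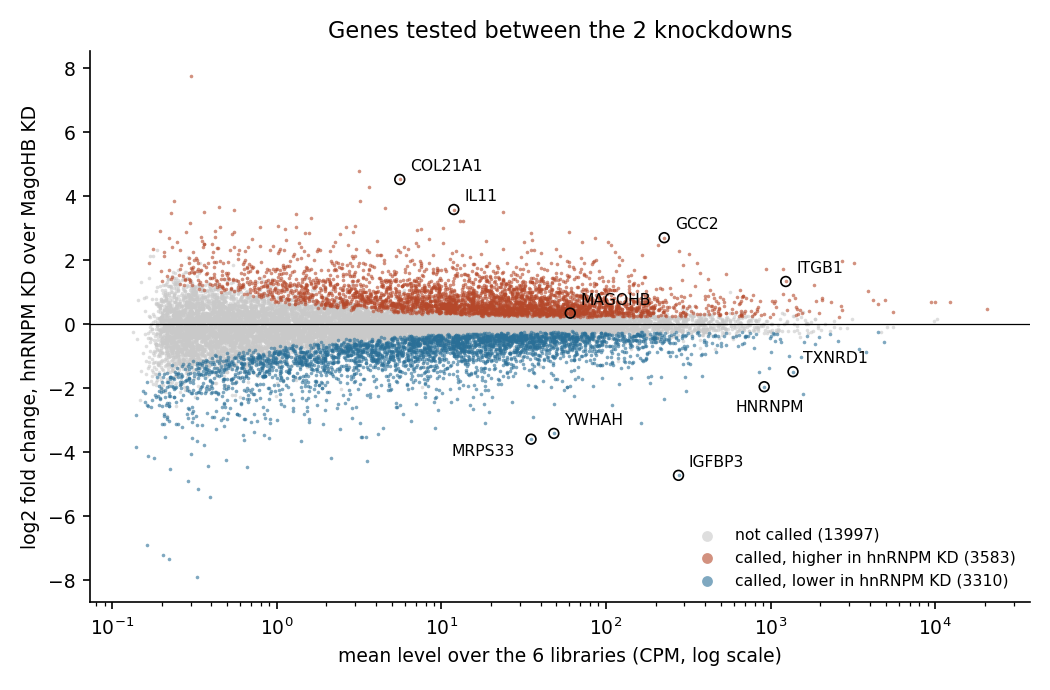
Each point is 1 of the 20890 genes tested, by its mean level over 6 libraries (CPM, log scale) and its log2 fold change, hnRNPM KD over MagoHB KD, with called genes in colour. Both directions hold similar numbers of calls, 3583 higher and 3310 lower, and IGFBP3 and COL21A1 mark the far ends among named genes.

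The 15 largest differences upward in the hnRNPM KD, among called genes with a symbol and a mean of at least 5 CPM whose groups did not overlap, ran from a log2 fold change of 4.53 (COL21A1) to 2.61 (FST). COL21A1, a collagen associated with fibrils, was at 9.8, 12 and 10.3 CPM against 0.486, 0.527 and 0.361 CPM, a log2 fold change of 4.53 (SE 0.19, adjusted p = 1.47e-05). IL11, a cytokine of the interleukin 6 family, was at 18.9, 24.3 and 22.7 CPM against 1.85, 2.16 and 1.42 CPM (3.59, SE 0.18, adjusted p = 1.58e-05). For both genes the lowest hnRNPM KD library was far above the highest MagoHB KD library. HAS2, which makes hyaluronan, was at 11.7, 13.2 and 15 CPM against 1.26, 2.11 and 1.68 CPM (2.97, SE 0.20). VEGFC, a growth factor for lymphatic vessels, rose by a log2 fold change of 2.68, and FST, which binds and blocks activins, by 2.61. OXTR, the oxytocin receptor, was at 57.5, 64.6 and 60.8 CPM against 6.85, 14 and 8.37 CPM (2.64, SE 0.24), with MagoHB KD 2 the highest of its group.

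Among the abundant genes of this group were HMGA2 and GCC2. HMGA2, a chromatin protein of embryonic and cancer cells, was at 134, 137 and 174 CPM against 24.3, 21.4 and 22.6 CPM (2.70, SE 0.13, adjusted p = 1.58e-05). GCC2, a golgin that tethers vesicles at the trans-Golgi, was at 363, 381 and 432 CPM against 61.9, 57.6 and 60.2 CPM (2.71, SE 0.10, adjusted p = 8.31e-06). Spread within each group was small beside these gaps. EFR3A, which anchors a lipid kinase at the plasma membrane, was higher by 2.88 and TMEM245, a multispan membrane protein, by 2.87, both at adjusted p-values of 1.6e-05 or less. PTX3, a soluble pattern-recognition protein, was at 18.4, 21.5 and 34.1 CPM against 1.02, 5.35 and 1.32 CPM (3.23, SE 0.57, adjusted p = 0.00399), and both libraries that stood apart were the highest of their groups. Its call was lost when all genes with at least 1 count were kept (adjusted p = 0.0587). The rule also named MYPN (3.50), AK7 (3.23), LMLN (3.02) and FA2H (2.95).

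By the same rule, the largest difference downward was that of IGFBP3, a secreted binding protein of insulin-like growth factors. It was at 20.4, 21.8 and 18.4 CPM against 352, 783 and 460 CPM, a log2 fold change of -4.72 (SE 0.31, adjusted p = 4.32e-05) and of -4.27 without the 2 libraries that stood apart. MRPS33, a protein of the small mitochondrial ribosomal subunit, was at 4.35, 5.44 and 6.33 CPM against 66, 64.9 and 63.2 CPM (-3.59, SE 0.14, adjusted p = 1.14e-05). YWHAH, the 14-3-3 eta adaptor protein, was at 8.83, 8.34 and 7.64 CPM against 90.6, 80 and 93.9 CPM (-3.41, SE 0.11, adjusted p = 6.69e-06). The groups were far apart for both genes. EPAS1, which encodes the hypoxia-inducible factor HIF-2 alpha, was at 29.8, 27.9 and 39 CPM against 182, 203 and 175 CPM (-2.53, SE 0.14, adjusted p = 1.71e-05). Lower values were also called for the liver-type genes HPD, a tyrosine catabolic enzyme (-3.24), and F7, coagulation factor VII (-3.09). CPLX2, a regulator of vesicle fusion, was lower (-3.08) and ERBB3 likewise (-2.65). The interferon-stimulated genes TRIM22, RSAD2 and GBP5 were at -3.03, -2.75 and -2.59, and MagoHB KD 2 was the highest library for each. TRIM22 (adjusted p = 0.0603), RSAD2 (0.0671), GBP5 (0.121) and VAV3 (0.0851) lost their calls when all genes with at least 1 count were kept. The rule also named TM4SF20 (-2.91), FBXO2 (-2.79), VAV3 (-2.67) and TMEM19 (-2.59).

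**Figure D3:**
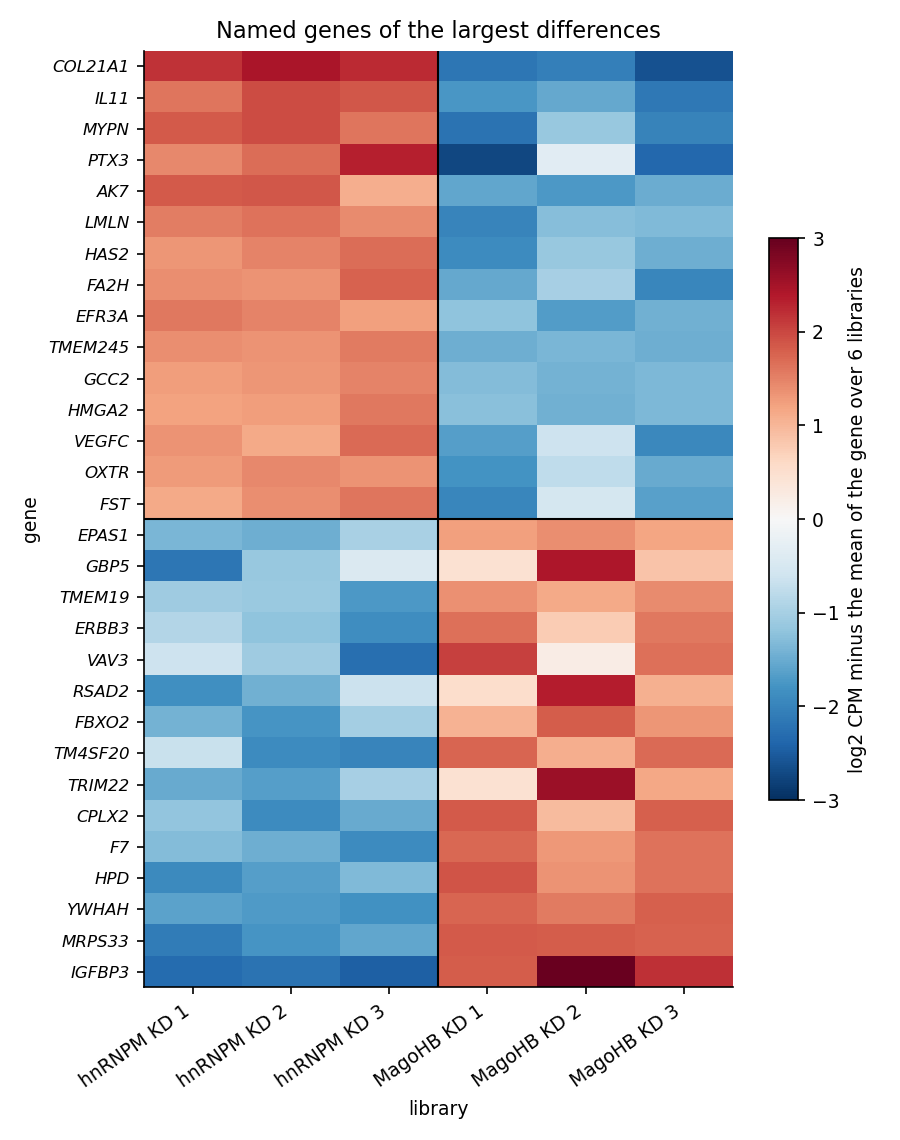
Each cell is the log2 CPM of a gene in 1 library minus the mean of that gene over 6 libraries, for the 15 highest and 15 lowest log2 fold changes named by the rule. All genes separate the groups, as the rule required, and MagoHB KD 2 lies above the other 2 libraries of its group for GBP5, RSAD2, TRIM22 and PTX3.

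Genes with the smallest adjusted p-values beyond these had differences of moderate size and little spread. NID1, nidogen of the basement membrane, was at 88.2, 83.9 and 78.5 CPM against 17.5, 14.6 and 16.9 CPM (2.35, SE 0.10, adjusted p = 1.47e-05). PLOD2, which hydroxylates collagen lysines, was at 327, 320 and 414 CPM against 60.5, 65.8 and 62 CPM (2.49, SE 0.12). GALNT1, which starts O-linked glycans, was at 195, 184 and 188 CPM against 42.4, 34.7 and 40.3 CPM (2.27, SE 0.10). Lower in the hnRNPM KD were EID1, an inhibitor of differentiation, at 71.4, 72.7 and 79.9 CPM against 409, 328 and 384 CPM (-2.32, SE 0.11), and KBTBD2, a substrate adaptor of a ubiquitin ligase (-1.94). PDCD4, an inhibitor of translation, was lower (-1.67), and 28.1% of its exon length overlaps BBIP1. GPATCH11 (1.97), PLEKHB2 (2.11), SAMD15 (1.92) and RSPRY1 (1.77) were higher.

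The lists of genes below group known functions. Their counts with 6 libraries are read against the 17.2% of all genes called higher and 15.8% called lower. Their medians are read against that of all genes tested, -0.02. Counts with 4 libraries are read against 25.1% higher and 24.8% lower. Leaving out 1 library gave 2342 to 4123 genes higher and 2070 to 3623 lower, of 21397 to 21727 tested. List counts moved together with these totals. The counts describe the lists and are no test of them. Counts of fewer than 5 members often moved by over 1.5 times when 1 library was left out. Among members named below, calls were lost in 8 of 15 alternatives for RPS3A, in 7 for SNHG14 and UPF1, in 6 for KLF6, in 4 for IFITM2 and RUVBL2, and in 3 for COL16A1, COL3A1 and PTBP3.

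**Figure D4:**
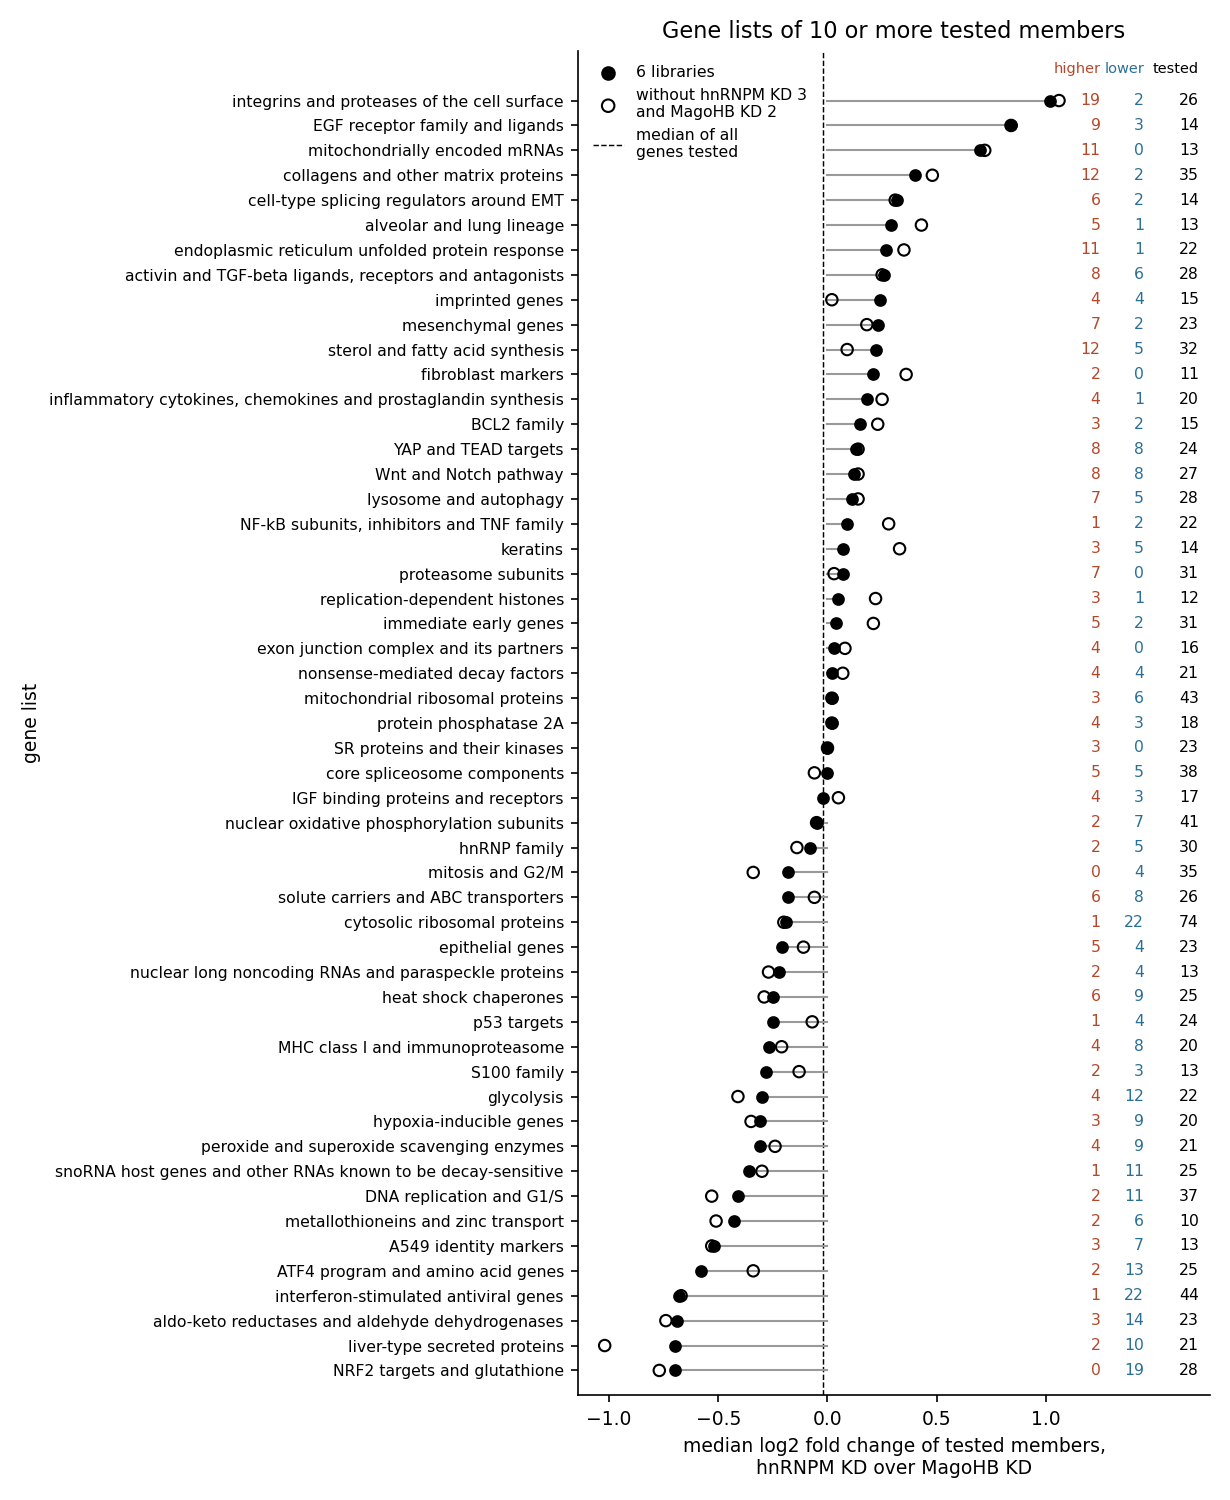
Median log2 fold change, hnRNPM KD over MagoHB KD, of the tested members of each gene list of at least 10 tested genes, with all 6 libraries (filled) and without hnRNPM KD 3 and MagoHB KD 2 (open), and the numbers of members called higher, called lower and tested. Integrins and surface proteases lie at 1.02, and NRF2 targets and liver-type secreted proteins at -0.70.

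Integrins and the proteases that act at the cell surface, which attach cells to matrix and cut it, were higher for 19 of 26 tested members and lower for 2, with a median of 1.02 (20 of 25 and 2 without the 2 libraries that stood apart). ITGB1, the beta chain shared by many integrins, was at 1766.7, 1765.9 and 1789 CPM in the hnRNPM KD and 707, 701 and 700 CPM in the MagoHB KD. Libraries within a group were nearly equal, and the log2 fold change was 1.34 (SE 0.08, adjusted p = 1.76e-05). ITGA6, a laminin-binding chain, was at 155, 145 and 145 CPM against 56.2, 61.3 and 56 CPM (1.36, SE 0.08). ADAM9, a membrane protease, was higher by 1.08. PLAU, the urokinase that activates plasminogen, was at 106, 117 and 120 CPM against 20.1, 37.6 and 24.5 CPM (2.06, SE 0.21, adjusted p = 0.00031), and 31.1% of its exon length overlaps C10orf55. ITGB4, which pairs with ITGA6 in hemidesmosomes, went the other way at 6.35, 5.44 and 5.79 CPM against 10.1, 14 and 12 CPM (-1.04, SE 0.15, adjusted p = 0.00102). ITGA1, the other member called lower, was at -0.30 and lost its call in 7 of 15 alternatives.

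In the EGF receptor family, receptors and ligands did not all move one way: 9 of 14 tested genes were higher and 3 lower, with a median of 0.84 (9 and 4 without the 2 libraries that stood apart). EGFR was at 194, 190 and 214 CPM against 77.2, 77.5 and 79 CPM (1.36, SE 0.08, adjusted p = 2.67e-05). Of its ligands, AREG was at 211, 219 and 171 CPM against 49.5, 53.2 and 47.8 CPM (2.00, SE 0.11), and EREG at 51.7, 52.3 and 51.2 CPM against 13.1, 17.9 and 10.5 CPM (1.90, SE 0.18). Both ligands and EGFR separated the groups by more than 2-fold. ERBB3, a receptor that signals through its partners, was lower at 5.56, 4.43 and 2.81 CPM against 32.2, 17.3 and 30.6 CPM (-2.65, SE 0.31, adjusted p = 0.000553). ADAM17, the protease that sheds EGF ligands such as AREG from the membrane, was at 30.6, 32.9 and 39.4 CPM against 133, 133 and 128 CPM (-1.94, SE 0.11, adjusted p = 1.71e-05), and 24.1% of its exon length overlaps IAH1. The feedback inhibitor ERRFI1 was higher by 0.81. Genes induced by such signalling, listed as immediate early genes, were higher for 5 of 31 and lower for 2 (11 and 4 of 30 with 4 libraries), with 10 higher without MagoHB KD 2 and 3 without hnRNPM KD 2, hnRNPM KD 3, MagoHB KD 1 or MagoHB KD 3. Those named were DUSP4 (1.69), FOSL1 (1.55), SPRY2 (1.43) and KLF6 (0.80) upward and FOS (-0.85) and KLF10 (-0.50) downward, and FOSL1 was not called with all genes of at least 1 count kept (adjusted p = 0.0817), nor was KLF6 (adjusted p = 0.17).

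Collagens and other matrix genes were higher for 12 of 35 and lower for 2 (18 and 10 without the 2 libraries that stood apart), with a median of 0.40. The count called higher was 7 without hnRNPM KD 2, 6 without MagoHB KD 3 and 19 without MagoHB KD 2. COL4A1, a chain of basement membrane collagen, was at 922, 1012 and 1149.1 CPM against 464, 671 and 507 CPM (0.91, SE 0.15, adjusted p = 0.0022). LAMB1, a laminin chain, was at 851, 905 and 856 CPM against 458, 520 and 461 CPM (0.86, SE 0.09). THBS1, a matrix protein that activates latent TGF-beta, was higher by 1.28. COL16A1 was lower (-1.05) (adjusted p = 0.0202). The 11 fibroblast markers had 2 higher and 0 lower, PDGFRA (1.44) and COL3A1 (0.57), and with 4 libraries 4 of 10 higher and 1 lower, and their part in the matrix values was not tested.

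TGF-beta and activin genes were higher for 8 of 28 and lower for 6. With 4 libraries 14 were higher and 6 lower, and without MagoHB KD 2 alone 12 were higher and 6 lower. TGFB1 was at 94.6, 105 and 93.4 CPM against 53.9, 48.7 and 56.2 CPM (0.88, SE 0.09), and its receptor TGFBR2 at 111, 101 and 127 CPM against 55.4, 66.4 and 57.8 CPM (0.91, SE 0.11). The groups did not overlap for either. The coreceptor TGFBR3 (2.34) and the BMP antagonist GREM1 (2.82) were higher, and the activin subunit INHBE (-2.12) and the inhibitory SMAD6 (-1.64) were lower. Mesenchymal genes were higher for 7 of 23 and lower for 2 (10 and 5 with 4 libraries), including CDH2, N-cadherin (0.90), ZEB2 (0.79) and LOXL2 (1.41), against S100A4 (-1.25). Members not called with 6 libraries included VIM (0.23), FN1 (0.13) and ZEB1 (-0.37). Epithelial genes were split, 5 of 23 higher and 4 lower, with 6 and 9 of 22 with 4 libraries and 7 lower without MagoHB KD 2 alone. CDH1, E-cadherin, was at 22.7, 19.2 and 14.3 CPM against 50.7, 33.9 and 47.2 CPM (-1.23, SE 0.20, adjusted p = 0.00245). EPCAM (0.84) and the junction genes JUP (0.92) and OCLN (0.81) were higher. Caveola genes EHD2 (0.79), CAV1 (0.63) and PTRF (0.85) were higher and PACSIN2 (-0.51) lower, of 6 tested, with the same counts with 4 libraries.

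Messenger RNAs encoded in mitochondrial DNA, which give subunits of the respiratory chain, were higher for 11 of 13 and lower for 0 (12 and 0 with 4 libraries), with a median of 0.70 and 12 of 13 non-overlapping between groups, where 23.8% of all genes did so upward. MT-ND2 was at 5690.4, 5756.6 and 4316.4 CPM against 2549.1, 2528.5 and 2575.1 CPM (1.04, SE 0.12, adjusted p = 0.000371). MT-CYB was at 2684, 2645.8 and 2573.1 CPM against 1509.4, 1438.5 and 1536.8 CPM (0.82, SE 0.08). The nuclear subunits of the same chain had a median of -0.05, with 2 of 41 higher and 7 lower (6 and 13 with 4 libraries). The count called lower was 3 without hnRNPM KD 2, 4 without hnRNPM KD 3, MagoHB KD 1 or MagoHB KD 3, and 11 without MagoHB KD 2. Within them, SDHB and SDHD of succinate dehydrogenase stood out. SDHB was at 7.23, 7.82 and 6.22 CPM against 32.2, 24.7 and 31.8 CPM (-2.06, SE 0.14, adjusted p = 3.59e-05), and SDHD at 4.88, 3.97 and 4.51 CPM against 18.6, 16.5 and 19.4 CPM (-2.03, SE 0.12). COX4I1, a subunit of cytochrome c oxidase, was higher by 0.79 and COX5B lower (-0.69). Mitochondrial ribosomal proteins had 3 of 43 higher and 6 lower (7 and 12 with 4 libraries), and 2 lower without hnRNPM KD 2, MagoHB KD 1 or MagoHB KD 3 and 3 lower without hnRNPM KD 3.

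Interferon-stimulated antiviral genes were lower in the hnRNPM KD for 22 of 44 and higher for 1, IFITM2 (0.53), with a median of -0.68. Without the 2 libraries that stood apart, 31 of 42 were lower and 3 higher, while 13 were lower without hnRNPM KD 1 and 14 without hnRNPM KD 2. Without MagoHB KD 2 alone, 18 were lower and 3 higher. The median was then -0.43, and it was -0.67 without both libraries that stood apart. RSAD2 (viperin), an antiviral enzyme, was at 3.3, 4.31 and 7.56 CPM against 16.9, 60.4 and 24.6 CPM, with both libraries that stood apart the highest of their groups. CMPK2, its genomic neighbour, was at 0.505, 0.173 and 0.475 CPM against 2.6, 5.04 and 2.7 CPM (-3.12, SE 0.41, adjusted p = 0.000757). IFI6 was lower (-1.78), as was IFI27 (-1.44). Antigen presentation genes were lower for 8 of 20 (5 without hnRNPM KD 1 or hnRNPM KD 2) and higher for 4, and with 4 libraries lower for 10 and higher for 5: TAPBPL (-0.80), HLA-F (-1.51), PSME2 (-0.46) and PSMB9 (-0.95) were lower, and the chaperones PDIA3 and CALR were both higher by 0.44.

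Promoters of these genes were searched for the interferon-stimulated response element, read as a pair of GAAA repeats with any 2 bases between them, on both strands, in the 250 bases before the RefSeq start (table of GRCh38.p14). It was found in 20 of the 33 tested members that had a promoter in the table, in 7 of the 16 called members among them, and in 2.58% of the 12042 tested genes with a promoter. The 2 promoters below are shown because they hold it and belong to members named here, IFI6 on the minus strand at chr1:27672231-27672330 and IFI27 on the plus strand at chr14:94110596-94110695. Each is 100 bases, 5′ to 3′ on the strand of the gene, with matches in capitals.
IFI6: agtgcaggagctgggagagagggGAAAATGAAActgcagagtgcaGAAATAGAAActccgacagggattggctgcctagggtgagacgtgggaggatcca
IFI27: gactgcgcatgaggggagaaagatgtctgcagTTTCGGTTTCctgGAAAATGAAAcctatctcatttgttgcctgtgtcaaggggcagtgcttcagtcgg
The match nearest the start ends 83 bases before it in IFI6 and 85 bases before it in IFI27. RSAD2 and CMPK2 had no match in this window. IFI6 was at 2.42, 2.04 and 2.66 CPM against 6.34, 8.55 and 9.6 CPM, and IFI27 at 0.923, 0.978 and 0.777 CPM against 1.85, 2.67 and 2.74 CPM.

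Targets of NRF2, the transcription factor of the antioxidant response, and glutathione genes were lower for 19 of 28 and higher for 0, with a median of -0.70 (25 lower and 0 higher of 28 without the 2 libraries that stood apart). TXNRD1, thioredoxin reductase, was at 750, 654 and 761 CPM against 2243.6, 1719.1 and 2093.9 CPM (-1.48, SE 0.12, adjusted p = 7.3e-05). HMOX1, which degrades heme, was at 30.1, 27.9 and 27.9 CPM against 51.2, 52.4 and 55.5 CPM (-0.89, SE 0.08, adjusted p = 0.000139). No library of one group reached the other for either gene. SRXN1, which repairs peroxiredoxins, was lower (-1.11), with 85% of its exon length overlapping another annotated gene, and FTH1, the ferritin heavy chain, was lower too (-1.03), with 62.4% overlapping BEST1. The transporters SLC7A11, which imports cystine (-1.27), and ABCC2, which exports glutathione conjugates (-0.97), were lower too.

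Aldo-keto reductases and aldehyde dehydrogenases, many of which are high in A549, were lower for 14 of 23 and higher for 3 (13 and 4 with 4 libraries), with a median of -0.69. AKR1B10 was at 530, 395 and 422 CPM against 1520.9, 905 and 1330.3 CPM (-1.48, SE 0.20, adjusted p = 0.00098), and AKR1C1 at 103, 66.1 and 92 CPM against 347, 180 and 295 CPM (-1.66, SE 0.25). MagoHB KD 2 was the lowest of its group for both. These families hold near-identical copies, so reads may be split between members. ALDH1A1, a retinal dehydrogenase, was at 2087.5, 2088.6 and 2166 CPM against 3194.7, 2869.8 and 3036.5 CPM (-0.52, SE 0.08), whereas ALDH1A3 was higher by 1.00. Enzymes that remove peroxide and superoxide were split (12 lower and 5 higher with 4 libraries), with 9 of 21 lower, such as GLRX (-1.31) and CAT, catalase (-0.43), and 4 higher, such as PRDX3 (0.79) and PRDX6 (0.59). Metallothionein and zinc genes had 6 of 10 lower and 2 higher (6 and 3 with 4 libraries): the zinc exporter SLC30A1 was lower (-0.87), while the importer SLC39A14 was at 98.2, 83.1 and 79.6 CPM against 34.3, 27.6 and 31.4 CPM (1.48, SE 0.12). The metallothionein MT2A was higher, with means of 50.5 against 28.4 CPM (0.83, adjusted p = 0.0181), and lost its call in 3 of 15 alternatives. MT1F (0.0554 against 0.328 CPM) and MT1X (0.546 against 1.23 CPM) were called lower at low levels.

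The antioxidant response element, spelled TGACNNNGC, was searched in the same way. It was found in 6 of the 21 tested NRF2 targets with a promoter in the table, in 1 of 18 aldo-keto reductase and aldehyde dehydrogenase genes, and in 11.9% of the 12042 tested genes. Among called members it was found in 5 of 16 and 0 of 12. A further motif, the AP-1 site TGANTCA, was found in 2 of 17 integrin and protease genes, 1 of 12 EGF receptor family genes and 4.28% of the tested genes. Among called members of these 2 lists it was found in 1 of 15 and 0 of 10. TXNRD1 is shown as the called member with the smallest adjusted p among NRF2 targets, on the plus strand at chr12:104215634-104215733, with the match in capitals.
TXNRD1: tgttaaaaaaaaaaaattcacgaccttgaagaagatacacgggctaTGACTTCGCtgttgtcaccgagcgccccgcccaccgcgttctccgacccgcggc
Its match ends 90 bases before the start.

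Genes of the ATF4 program, which supply amino acids under stress, were lower for 13 of 25 and higher for 2, with a median of -0.58, and of -0.34 without the 2 libraries that stood apart (17 lower, 3 higher). Without hnRNPM KD 1 or hnRNPM KD 2, 7 and 5 were lower. ASNS, asparagine synthetase, was at 15.3, 14.6 and 15.1 CPM against 26.9, 42.7 and 27 CPM (-1.11, SE 0.18, adjusted p = 0.00218). CEBPB, a transcription factor, was at 9.65, 9.92 and 15 CPM against 26.5, 36.1 and 28.7 CPM (-1.40, SE 0.19). In both genes MagoHB KD 2 was the highest library. The amino acid carriers SLC1A5 and SLC3A2 were both lower (-0.64), and CBS, which makes cystathionine, was higher by 0.58. The unfolded protein response of the endoplasmic reticulum went the other way, with 11 of 22 higher and 1 lower (14 and 3 with 4 libraries) and a median of 0.27. SEL1L, of the complex that disposes of misfolded proteins, was at 95.8, 95.7 and 132 CPM against 36.4, 30.1 and 31.9 CPM (1.72, SE 0.15, adjusted p = 8.79e-05). DERL1 (1.10), PDIA6 (1.06) and DNAJC3 (1.02) were higher, and XBP1, a transcription factor of the same response, was lower at 70.2, 70.4 and 72.1 CPM against 107, 123 and 103 CPM (-0.65, SE 0.09). Heat shock chaperones were split, 6 of 25 higher and 9 lower (7 and 14 with 4 libraries, 3 and 5 without MagoHB KD 3, and 5 lower without hnRNPM KD 1): CHORDC1 (1.08) was higher, and HSP90AA1 (-0.76) and HSPA1A (-0.69) were lower.

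Glycolysis genes were lower for 12 of 22 and higher for 4 (15 and 5 with 4 libraries). PGK1, phosphoglycerate kinase, was at 115, 89.7 and 71 CPM against 308, 252 and 290 CPM (-1.62, SE 0.17, adjusted p = 0.000282). The glucose transporter SLC2A1 was lower (-1.10), as was TPI1 (-0.93), while HK2 (1.32) and PFKFB3 (1.05) were higher. Hypoxia-inducible genes (14 of 20 lower and 4 higher with 4 libraries) were lower for 9 of 20, with VEGFA at -0.62 and CA12 at -0.79 beside EPAS1, and higher for 3, with ANGPTL4 at 73.7, 87.1 and 116 CPM against 22.8, 34.6 and 21.2 CPM (1.81, SE 0.23). Sterol and fatty acid synthesis had 12 of 32 higher and 5 lower (15 and 12 without the 2 libraries that stood apart, 7 higher without hnRNPM KD 1, hnRNPM KD 2 or MagoHB KD 3, and 12 lower without MagoHB KD 2). Between 2 and 3 were lower without any other library. MSMO1, an enzyme of cholesterol synthesis, was higher by 1.81, and the desaturase FADS1 was lower (-0.93).

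The calls of some lists moved with the libraries that stood apart. DNA replication genes were lower for 11 of 37 and higher for 2 with 6 libraries, and lower for 29 and higher for 3 without those 2. The count called lower was 6 or 7 without any of hnRNPM KD 1 to 3 or MagoHB KD 3 and 25 without MagoHB KD 2. CCNE1, cyclin E1, was at 6.44, 5.75 and 4.92 CPM against 22.8, 19.3 and 21.8 CPM (-1.90, SE 0.13, adjusted p = 3.59e-05). RRM2, a subunit of ribonucleotide reductase, was at 101, 84.9 and 57.5 CPM against 362, 183 and 315 CPM (-1.82, SE 0.28, adjusted p = 0.00216), with both libraries that stood apart the lowest of their groups. CCNE2 was higher by 0.91 and GINS1 by 0.97. Mitosis genes were lower for 4 of 35 and higher for 0 with 6 libraries, and lower for 21 and higher for 5 without the 2, and 17 were lower without MagoHB KD 2 alone. ANLN, a scaffold of the cleavage furrow, was lower (-1.08), and KIF11, a spindle motor, was at 61.3, 57.2 and 42.1 CPM against 162, 76.5 and 151 CPM (-1.28, SE 0.28). Cytokine and prostaglandin genes had 4 of 20 higher and 1 lower, 6 and 3 with 4 libraries and 8 and 1 without MagoHB KD 2 alone. Their median of 0.18 was 0.74 without MagoHB KD 2, -0.15 without hnRNPM KD 3 and -0.04 without MagoHB KD 1. Besides IL11 and PTX3, CCL2 was at 23.4, 25.5 and 29.6 CPM against 6.42, 13.6 and 7.94 CPM (1.48, SE 0.26), PTGES was higher by 1.20, and LIF was lower (-0.44). NF-kB and TNF family genes had 1 of 22 higher and 2 lower, and 9 higher and 5 lower without the 2 libraries. Without MagoHB KD 2 alone, 6 were higher. The median of that list was 0.09, and it was 0.49 without MagoHB KD 2, -0.17 without hnRNPM KD 3, -0.05 without MagoHB KD 1 and -0.01 under scaling by total counts alone. Of 12 leukocyte and blood markers, CD68, a lysosomal protein, made up nearly all of the summed level (82.7 to 163 CPM), with 77.7 to 158 CPM by itself, highest in hnRNPM KD 3 of its group and in MagoHB KD 2 of its group (140 CPM). PTPRC, the defining leukocyte marker, was at 0.109 to 0.527 CPM, and CD3D and CD3E were at 0 in 4 and 5 of the 6 libraries. Of the markers tested, 1 was called higher, CD14 (1.96, means of 1 against 0.256 CPM, adjusted p = 0.0021). ITGAM was the 1 called lower (-1.16, means of 2.63 against 5.86 CPM, adjusted p = 0.0057). In such bulk libraries, fewer cells of a kind and less RNA per cell cannot be told apart.

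**Figure D5:**
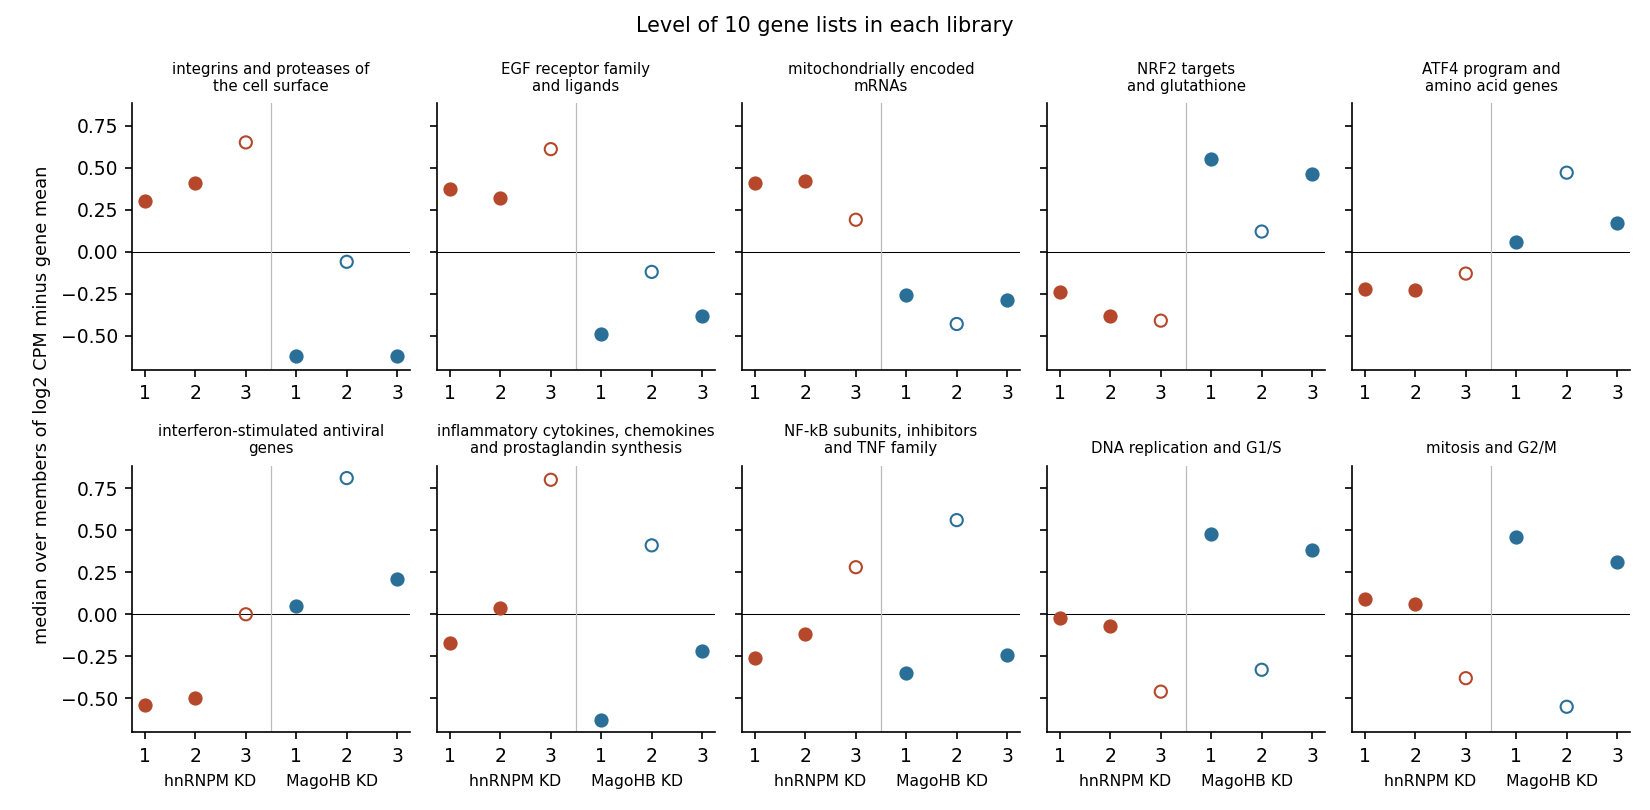
Median over the tested members of each list of log2(CPM + 0.1) minus the gene mean, for each of the 3 hnRNPM KD (left) and 3 MagoHB KD (right) libraries, with open points for hnRNPM KD 3 and MagoHB KD 2. NRF2 targets and integrins separate the groups, although MagoHB KD 2 lies nearer the hnRNPM KD libraries in both lists. For cytokines, NF-kB genes, DNA replication genes and mitosis genes the groups overlap. In each list shown, both open points lie to the same side of the other 2 of their group.

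Of 16 genes of the exon junction complex and its partners, 4 were called higher (SRRM1, 0.40; SAP18, 0.31; NXF1, 0.36; ACIN1, 0.27) and 0 lower, with a median of 0.03 that turned to -0.06 under scaling by total counts alone. Each of these 4 lost its call in at least 3 of 15 alternatives, and ACIN1 in 10. With 4 libraries 7 were higher and 1 lower, while 0 were called without hnRNPM KD 1 or without hnRNPM KD 2, and 1 was higher without MagoHB KD 3. Of 21 decay factors, 4 were higher, DCP2 (0.60), GSPT1 (0.53), RUVBL2 (0.52) and UPF1 (0.28), and 4 lower, including XRN1, the exonuclease that degrades decapped mRNA. With 4 libraries 5 were higher and 7 lower, and 2 were higher and 2 lower without hnRNPM KD 1 or hnRNPM KD 2. XRN1 was at 12.6, 12.4 and 16.7 CPM against 30.9, 37.3 and 32.9 CPM (-1.28, SE 0.14, adjusted p = 0.00029). RNAs known to be sensitive to nonsense-mediated decay, mainly hosts of small nucleolar RNAs, were lower for 11 of 25 and higher for 1, SNHG14, with a median of -0.36 (16 lower and 2 higher without the 2 libraries, and 7 lower without hnRNPM KD 2). SNHG5 was at 106, 101 and 98 CPM against 142, 150 and 135 CPM (-0.48, SE 0.08, adjusted p = 0.00259). GADD45B, a stress gene with MagoHB KD 2 the highest, was lower (-1.53). GADD45A of the same list was not called with 6 libraries (0.27) and was called higher with 4 (0.61).

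Among hnRNP genes, 5 of 30 were lower, HNRNPM among them, and 2 higher, HNRNPUL1 (0.64) and PTBP3 (0.40). With 4 libraries 14 were lower and 7 higher. Without MagoHB KD 2 alone, 10 were lower, and 3 were lower without hnRNPM KD 1, hnRNPM KD 2, MagoHB KD 1 or MagoHB KD 3. HNRNPA1, which has many processed copies, was at 2878.4, 2978.6 and 2250.7 CPM against 5758.4, 3791.1 and 5327.3 CPM (-0.88, SE 0.17, adjusted p = 0.00535). SR proteins and their kinases had 3 of 23 higher, of which SRSF12 (1.37) and DYRK1A (0.57) are named beside SRRM1, and 0 lower. With 4 libraries 9 were higher and 7 lower, and 2 were lower without MagoHB KD 2 alone. Core spliceosome genes had 5 of 38 higher and 5 lower, between -0.72 and 0.73, with 11 higher and 13 lower with 4 libraries and 2 higher and 1 lower without hnRNPM KD 2. Splicing regulators that vary between cell types were higher for 6 of 14 and lower for 2 (8 and 3 with 4 libraries). MBNL1 was at 134, 133 and 144 CPM against 70.8, 68.2 and 65.9 CPM (1.00, SE 0.08, adjusted p = 6.95e-05) and QKI at 89.7, 96.2 and 106 CPM against 55.7, 61 and 55.4 CPM (0.76, SE 0.09). RBM47 was higher by 1.07, and RBFOX2 (-0.48) and RBM24 (-0.54) were lower. Gene counts do not show which exons were used, so splicing itself was not analysed here.

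Cytosolic ribosomal protein genes were lower for 22 of 74 and higher for 1 (RPS3A, 0.23), with a median of -0.19, and 57 of 74 with all hnRNPM KD libraries below all MagoHB KD libraries, where 23.8% of all genes did so. The count called lower was 8 without hnRNPM KD 2, 9 without MagoHB KD 3, 13 without MagoHB KD 1, 14 without hnRNPM KD 1 and 53 without both libraries that stood apart. RPL32 was at 213, 213 and 230 CPM against 352, 372 and 362 CPM (-0.73, SE 0.08, adjusted p = 0.000293), and RPL23A was lower (-0.56). Many of these genes have processed copies. Proteasome subunits had 7 of 31 higher and 0 lower, led by PSMA7 (0.59) and PSMD12 (0.48), and 2 higher without hnRNPM KD 1, hnRNPM KD 2 or MagoHB KD 3. With 4 libraries 11 were higher and 8 lower, without MagoHB KD 2 alone 5 were higher and 6 lower, and under total counts alone 5 were higher and 4 lower.

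Genes that mark A549 itself were changed in level but not absent: of 13 markers, 3 were higher, among them KRT8 (0.76) and KRT18 (0.36), and 7 lower (4 and 8 with 4 libraries). Liver-type secreted proteins, several of which A549 makes, were lower for 10 of 21 and higher for 2, with a median of -0.70, and lower for 17 of 23 and higher for 2 without the 2 libraries that stood apart. CP, ceruloplasmin, was at 81.3, 58.7 and 60.9 CPM against 257, 151 and 238 CPM (-1.68, SE 0.21, adjusted p = 0.000839). FGA, the fibrinogen alpha chain, was at 128, 114 and 134 CPM against 201, 208 and 203 CPM (-0.70, SE 0.09), and APOE went the other way (1.37). In the S100 family, S100A16 and S100A13 (0.51) were the 2 of 13 called higher, and S100A1 (-2.30), S100A2 (-1.15) and S100A4 were the 3 called lower (2 higher and 5 lower with 4 libraries).

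Calls also varied with the length of the gene. Among protein-coding genes of at least 5 CPM, ordered by genomic span into 5 classes of about equal number, 15.6% of the shortest class were called higher, then 21.1%, 25.4%, 30% and 31.7% in the longest. The share called lower was 19.4% in the shortest and 15.5% in the longest class. The median log2 fold change went from -0.03 to 0.10, and from -0.03 to 0.09 without the 2 libraries that stood apart, while the median level was 22.9 to 30.9 CPM. By chromosome, medians lay between -0.03 and 0.19 for the nuclear chromosomes, highest on chromosome 21 (114 genes), and the 37 mitochondrial genes stood at 0.70.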

How the data were processed

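Poly(A) mRNA was sequenced in 6 libraries, 3 per line, at 36612997 to 51406431 counts each. The deposited table pairs raw counts for each gene, whole numbers, with the authors' RPKM, which equalled count / exon length / total counts for 100% of 531539 values within a relative tolerance of 0.001. Per the submitters' processing notes, the tools included StringTie 2.1.4, HISAT2 2.2.1 and SAMtools 1.15.1, and the build was GRCh38. Which program counted, on which annotation and with which strand setting, was not stated in the labels, so overlapping, antisense and near-identical genes are uncertain. Of counts from 1 to 19, 20.05% to 21.63% were odd, so both mates of a pair may have been counted and halved counts were an alternative. Per-sample columns not used numbered 0.

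The 44016 features were annotated by GENCODE 29 symbols (29186 matched). Counts of the 6 libraries were tested with edgeR 4.0.16 (R 4.3.3): robust quasi-likelihood F test, TMM scaling, filterByExpr, Benjamini-Hochberg adjustment over all genes tested, called under 0.05. The procedure was checked on simulated data. The simulated counts had few changed genes and no shift shared between libraries, so the check did not cover the libraries that stood apart. The repeat left out hnRNPM KD 3 and MagoHB KD 2. Alternatives were DESeq2 1.42.0, limma 3.58.1 voom with quality weights, other scalings, no filter, halved counts, the spread of all 12 knockdown libraries, a replicate block and leaving out each library. Levels per library are TMM-scaled CPM computed here, and SEs are the absolute log2 fold change divided by the square root of F.

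The members and the 56 gene lists were chosen with earlier results of these data known. Of 1382 list entries, 1378 were found in the table, 2 under another symbol, and the others were not analysed here. Named genes were 5 fixed genes, the 15 highest and 15 lowest called log2 fold changes with a symbol, a mean of at least 5 CPM and no overlap of the groups, the 10 next smallest adjusted p-values, and up to 4 called members of each list in its main direction and 2 in the other. The rule gave 315 genes, of which part are printed. Motifs and promoters use the RefSeq promoter table of GRCh38.p14.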

Additional observations from a re-analysis of the deposited data

How the results depend on the processing

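With all 6 libraries, limma voom with quality weights called 11067 genes (5640 higher, 5427 lower), against 6893 in the edgeR fit, and leaving out 1 library gave 4496 to 7746 calls, 2342 to 4123 higher and 2070 to 3623 lower. The fewest calls came without MagoHB KD 3 and without hnRNPM KD 2 (4595). Without both libraries that stood apart, 5133 genes were lower. The cause of these moves was not tested. With 4 libraries, leaving out a further one gave 8702 to 9104 calls, where the lone library of a group is assumed to vary like the others, and total counts alone gave 41.7% of calls higher in place of 50.3%. MAGOHB passed the test in limma (0.29) and without both libraries (0.28). MAGOH, never called, turned to -0.09 under total counts, -0.00 with halved counts and with the replicate block, and to between -0.08 and -0.03 without hnRNPM KD 1, hnRNPM KD 2 or MagoHB KD 2, and leaving out 1 library gave -0.08 to 0.11. RBM8A turned to between 0.02 and 0.07 without hnRNPM KD 3, MagoHB KD 1 or MagoHB KD 3. Same-numbered libraries of the 2 lines had correlations of deviations of 0.63, -0.394 and -0.535. The 2 libraries that stood apart carry different numbers and weigh on these values, so they cannot tell whether the numbers mark a pairing. The fit with the replicate block called 5657 genes. Depth was varied only by halving the counts, which gave 6827 calls among 18596 genes tested, so what depth limits among low genes was not tested further.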

Other observations

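Some growth factor and imprinted genes outside the lists above also differed between the KDs. Imprinted genes were split, 4 of 15 higher and 4 lower (6 and 5 with 4 libraries, and 1 higher without MagoHB KD 3). Among those lower was H19 (-1.60, SE 0.39, edgeR adjusted p = 0.0154). IGF2, an imprinted growth factor, was at 1580, 1412.8 and 1346.9 CPM in the hnRNPM KD and 399, 499 and 410 CPM in the MagoHB KD (log2 fold change 1.73, SE 0.12, edgeR adjusted p = 3.45e-05), with 23.4% of its exon length overlapping INS-IGF2. Its groups were far apart and opposite in direction to IGFBP3, which binds it. IGF2BP2, which binds its mRNA, was higher by 0.98. IGF binding proteins and receptors as a list had 4 of 17 higher and 3 lower, 5 and 6 with hnRNPM KD 3 and MagoHB KD 2 left out, and 1 lower without hnRNPM KD 1, hnRNPM KD 2 or MagoHB KD 3. MUC5AC, a secreted mucin, was at 426, 511 and 439 CPM against 118, 62.7 and 103 CPM (2.28, SE 0.22, adjusted p = 0.000229). MITF, a transcription factor of lysosome and pigment genes, was at 31.8, 32.2 and 31.9 CPM against 9.87, 11.9 and 9.47 CPM (1.62, SE 0.11), whereas its relative TFEB was lower (-1.22).

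Wnt and Notch genes were split, 8 of 27 higher and 8 lower (10 and 8 with 4 libraries, 3 lower without hnRNPM KD 2, 4 without hnRNPM KD 1 or MagoHB KD 3, 5 without hnRNPM KD 3 or MagoHB KD 1). The Wnt antagonist DKK1 was at 134, 116 and 104 CPM against 58, 47.5 and 49.3 CPM (1.19, SE 0.12), TCF7L2 was higher by 1.33 and the Notch ligand JAG1 by 0.75, and the Notch target HES1 was lower (-1.68). YAP and TEAD targets were split in the same way, 8 of 24 higher and 8 lower (11 and 10 with 4 libraries, 4 higher without MagoHB KD 3, 5 higher without hnRNPM KD 2 or hnRNPM KD 3, 5 lower without hnRNPM KD 1 or hnRNPM KD 2). NT5E, an ecto-nucleotidase, was at 57.5, 56.9 and 68.6 CPM against 6.83, 22.1 and 7.52 CPM (2.32, SE 0.42, adjusted p = 0.00443), and was not called with all genes of at least 1 count kept (adjusted p = 0.0613). AJUBA was at 19.1, 22.2 and 24 CPM against 80.2, 111 and 78 CPM (-2.04, SE 0.16). NORAD, a long noncoding RNA that binds Pumilio proteins, was at 150, 146 and 228 CPM against 379, 488 and 376 CPM (-1.24, SE 0.19, adjusted p = 0.00185).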
